A study of Mus musculus with 20 samples.

Results

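The genes described here encode the enzymes and regulators by which skeletal muscle takes up glucose, breaks it down to lactate, and builds and breaks down glycogen. The list holds 37 named genes, of which 36 had a non-control probe under their name on the array. The exception was Gapdh, which has no level here and enters only the counts of promoter windows. A gene was represented by its brightest probe by mean signal over all 20 arrays, and all 36 were among the 25291 genes tested. The study used male ICR mice aged 6 months, of which 5 spent 24 h in hind-limb suspension (HLS) and 5 walked freely as controls, and RNA was taken from soleus and gastrocnemius. In HLS the tail is held up, here with the head down at 45°, so that the hind limbs bear no weight. The groups were soleus after HLS, soleus control, gastrocnemius after HLS and gastrocnemius control, with 5 one-colour Agilent arrays each and 1 muscle of 1 mouse per array. Mice of both conditions lived in individual cages on a reversed light cycle with free access to food, and both muscles of a mouse were taken, so p-values measure the spread between mice. The labels give no genetic change for any group. Each whole muscle also holds vessels, nerve, connective tissue and fat.

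Glucose enters a muscle fibre through the transporters GLUT4 (Slc2a4) and GLUT1 (Slc2a1) and is trapped as glucose 6-phosphate by hexokinase (Hk1, Hk2). It then either runs down glycolysis to pyruvate and lactate or is stored as glycogen, a branched polymer that phosphorylase (Pygm, Pygb) cuts when the muscle contracts. Fast fibres rely on glycolysis and glycogen, whereas slow fibres of postural muscles such as soleus depend more on mitochondrial oxidation. The bifunctional Pfkfb enzymes set the level of fructose 2,6-bisphosphate, a strong activator of phosphofructokinase.

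Promoter sequence is shown for Pfkfb3, Pgam1 and Ugp2, which passed the test in both muscles, and for Ppp1r3c, whose transcript had the largest fall. Each run holds the 250 bases before a listed start, 5′ to 3′ on the gene's strand, from RefSeq on GRCm38.p6. Capitals mark CACGTG (the E-box bound by basic helix-loop-helix factors), ACGTG (the core of the hypoxia response element, which lies within CACGTG) and GGGCGG (the GC box), on either strand.
Pfkfb3, first listed start (chr2:11553930-11554179, minus strand): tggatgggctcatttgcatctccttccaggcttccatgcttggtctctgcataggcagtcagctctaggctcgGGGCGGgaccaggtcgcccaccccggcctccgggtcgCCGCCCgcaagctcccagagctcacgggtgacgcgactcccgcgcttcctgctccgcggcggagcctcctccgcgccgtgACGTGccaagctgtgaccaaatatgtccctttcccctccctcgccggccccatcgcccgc
Pfkfb3, second listed start (chr2:11502091-11502340, minus strand): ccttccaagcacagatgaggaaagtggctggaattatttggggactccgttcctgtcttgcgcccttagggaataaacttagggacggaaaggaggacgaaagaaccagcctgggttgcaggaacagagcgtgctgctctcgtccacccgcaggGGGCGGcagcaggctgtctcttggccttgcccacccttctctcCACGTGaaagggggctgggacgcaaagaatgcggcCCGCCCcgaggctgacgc
Pgam1 (chr19:41911621-41911870, plus strand): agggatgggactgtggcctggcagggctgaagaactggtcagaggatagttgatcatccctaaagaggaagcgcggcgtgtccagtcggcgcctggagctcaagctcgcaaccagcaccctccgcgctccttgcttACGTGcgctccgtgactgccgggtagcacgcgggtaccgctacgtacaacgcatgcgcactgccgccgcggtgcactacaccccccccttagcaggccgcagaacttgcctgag
Ugp2, first listed start (chr11:21371268-21371517, minus strand): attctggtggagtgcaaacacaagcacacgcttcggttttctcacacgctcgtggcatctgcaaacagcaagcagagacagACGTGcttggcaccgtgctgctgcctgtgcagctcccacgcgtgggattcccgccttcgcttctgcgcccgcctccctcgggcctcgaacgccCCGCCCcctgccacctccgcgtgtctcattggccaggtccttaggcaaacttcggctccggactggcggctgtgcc
Ugp2, second listed start (chr11:21370630-21370879, minus strand): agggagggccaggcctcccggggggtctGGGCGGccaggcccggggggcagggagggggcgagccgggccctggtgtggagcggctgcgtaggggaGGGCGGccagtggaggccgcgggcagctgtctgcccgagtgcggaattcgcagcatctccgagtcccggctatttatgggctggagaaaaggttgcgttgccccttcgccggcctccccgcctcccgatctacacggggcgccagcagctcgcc
Ppp1r3c (chr19:36736605-36736854, minus strand): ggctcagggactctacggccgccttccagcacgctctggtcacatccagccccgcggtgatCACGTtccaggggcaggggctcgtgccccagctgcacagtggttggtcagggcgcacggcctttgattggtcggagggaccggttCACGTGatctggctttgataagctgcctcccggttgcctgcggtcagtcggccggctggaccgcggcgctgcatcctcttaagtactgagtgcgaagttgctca

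Of the 37 genes, 35 matched the promoter table (Gapdh among them, Gpd1 and Slc2a4 not), with 54 such windows in all. ACGTG was present in 20 of the 54 windows (37%), against 16.6% of all 32851 windows in the table. CACGTG was present in 6 of 54 (11.1%), against 6.02% of all windows, and GGGCGG in 25 of 54 (46.3%), against 32.7%. The other motifs searched on both strands were TGACGTCA (the cyclic AMP response element), TATAAA (the TATA box), TGTTTAC (the FoxO site) and the palindromic glucocorticoid response element. These were present in 1, 1, 1 and 0 of the 54 windows, against 1.55%, 12.4%, 3.17% and 0.00913% of all windows. Windows of 1 gene can overlap and are not independent, and a match describes the letters only.

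Levels are log2 of the processed signal over the 75th percentile of the array, so 0 is that percentile, and they are compared within a gene only. Differences are log2 with standard errors from limma, and p-values were adjusted by the Benjamini-Hochberg method across the 25291 genes, with 0.05 as the threshold. All 36 genes were well above background on all 20 arrays, with no saturated spot. Array 1 of the soleus HLS group stood apart. Its slow fibre markers summed to 880 times the 75th percentile, against 1677 to 2261 on the other soleus HLS arrays and 448 to 751 on gastrocnemius arrays. Tnni1, the slow troponin I, was at 4.15 on it and at 6.72 to 7.35 on the other soleus HLS arrays. Its fast fibre markers summed to 4200, against 2446 to 3102 on the other soleus HLS arrays. Many soleus values that it moved in sign, in call or by over 1.5 times are also given without it, but not all. Between control soleus and control gastrocnemius, 10 of 10 slow fibre markers were higher in soleus, with a median difference of 2.78. The 11 fast fibre markers went both ways there, 4 higher and 5 lower in soleus, with a median of -0.28.

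**Figure D1:**
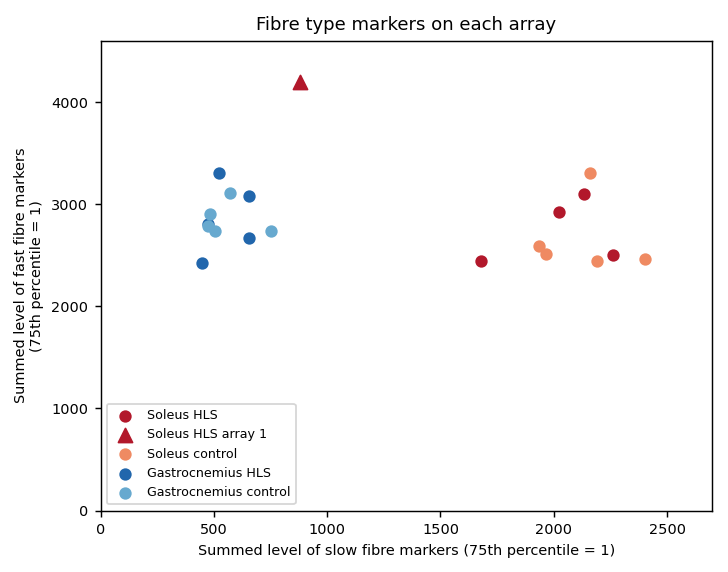
Summed level of 10 slow fibre markers (x axis) against 9 fast fibre markers measured on every array (y axis), in multiples of the array's 75th percentile, 1 point per array. The triangle is soleus HLS array 1, at 880 for slow markers, between the other soleus arrays and the gastrocnemius arrays, and at 4200 for fast markers, above every other array.

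Setting HLS soleus against control soleus asks how 24 h without load alters these transcripts in a postural muscle. Of 36 genes, 3 rose (Pfkfb3, Gpd1 and Fbp2), 6 fell (Ppp1r3c, Pgam1, Ugp2, Hk2, Slc2a1 and Hk1) and 27 did not pass. Over all genes 5.95% passed, 2.42% higher and 3.53% lower. The median difference of the 36 genes was 0.04, against 0.05 over all genes, and without HLS array 1 it was -0.06, against 0.05. In bulk muscle, fewer cells of a type and less RNA per cell cannot be told apart. Beside these changes, 2 of 10 slow fibre markers fell in soleus, with a median of -0.58, and without HLS array 1 it was 1 of 10, with a median of -0.06. Of the 11 fast fibre markers 0 passed, with medians of 0.22 and 0.02 with and without that array. Smooth muscle markers had a median of -0.77 with 1 of 4 lower, and their sum spanned 192 to 304 in HLS soleus and 186 to 311 in control soleus. That sum is mostly Acta2, at 7.50 to 8.18 in HLS soleus and 7.37 to 8.15 in control soleus. No other marker of the list exceeded 5.33 in soleus, so the sum says little of them. In tendon and fibroblast lists 1 of 6 markers each fell, with medians of -0.27 and -0.06. The 6 adipocyte markers had a median of -0.60 (-0.32 without HLS array 1) with none past the threshold, and their sum spanned 113 to 261 in HLS soleus and 142 to 281 in control soleus. No endothelial, nerve, macrophage or red blood cell marker passed in the fit of all arrays, with list medians of -0.38 to 0.18. Without HLS array 1, 1 of 4 endothelial markers fell. The nerve, macrophage and fibroblast medians were then -0.64, 0.20 and 0.03. The part of these cell types in the results was not tested.

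Without array 1 of the HLS group, 8 of the 9 calls in soleus stood and Slc2a1 missed the threshold. Of the 36 differences 9 turned in sign without it, all of genes that did not pass either way (Eno3, Gpd2, Gpi1, Pfkfb1, Pfkm, Pgk1, Phka1, Pygb and Tpi1). Slide and scan day were only in part shared between the groups. With slide as a fixed block 0 of 36 passed, and that estimate rests on 1 slide with 3 HLS arrays and 1 control array. With scan day as a block 7 passed, without Hk1 and Slc2a1. Scaled to the E1A spike-in RNA in place of the percentile, 12 passed, 2 higher and 10 lower, with the median of all genes at -0.21. For the counts with a block or this scaling the share of all genes is not given, so they are no result about the 36.

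**Figure D2:**
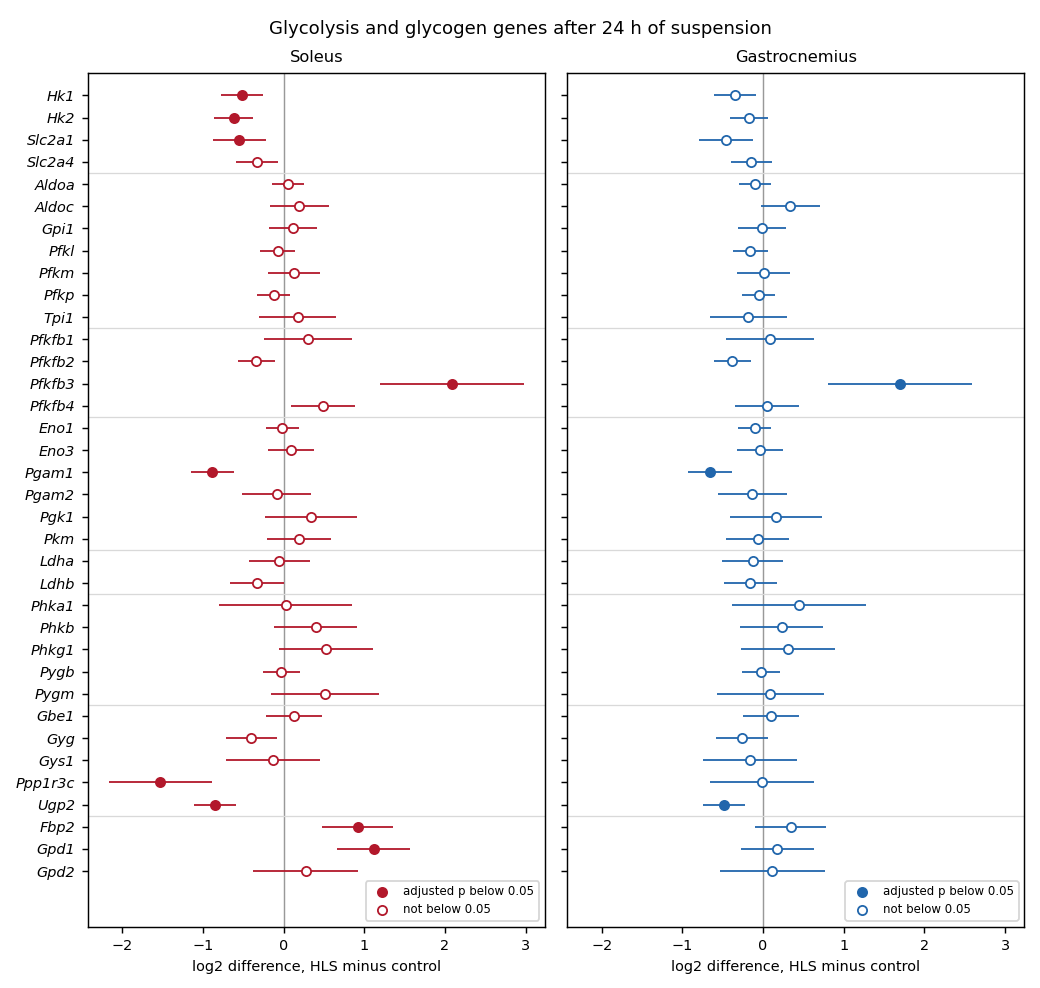
Log2 difference, HLS minus control, of the 36 genes in soleus (left) and gastrocnemius (right), with 95% confidence intervals from limma, grouped by role. Filled points have an adjusted p below 0.05 (9 in soleus, 3 in gastrocnemius); Pfkfb3 lies farthest to the right in both muscles, while Hk1 in soleus was at 0.05 with the mean of its probes, Slc2a1 in soleus was at 0.000575 within 1 slide, and Pgam1 and Ugp2 in gastrocnemius were at 0.12 and 0.30 with spike-in scaling.

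The comparison in gastrocnemius asks the same of a muscle rich in fast fibres. Of 36 genes, 1 rose (Pfkfb3), 2 fell (Pgam1 and Ugp2) and 33 did not pass. Over all genes 3.17% passed, 1.17% higher and 2.00% lower. The median of the 36 genes was -0.05, against 0.01 over all genes. All 3 had also passed in soleus, with the same direction. Both muscles came from the same mice, so this is no independent repeat. The share of all gastrocnemius calls that also passed in soleus is not given here. Of the fibre type markers, 0 of 10 slow and 0 of 11 fast genes passed here, with medians of 0.01 and 0.03. Tendon markers fell in 1 of 6 cases and endothelial markers in 1 of 4, with list medians of -0.26 and 0.07. None of the 4 smooth muscle markers passed, at a median of -0.51. The other lists had no call and medians of -0.29 to 0.18. The part of these cell types was not tested here either. A block for slide left 0 of 36, and a block for scan day also 0. Each estimate rests on 1 HLS array, scanned with the controls. Relative to the percentile, the spike-in RNA differed between these groups, and E1A stood at 1.77 ± 0.13 in HLS and 2.55 ± 0.08 in control gastrocnemius (SD, n = 5). With spike-in scaling the median of all genes was 0.79, and 33 of 36 genes passed, all higher. The share of all genes that passed under this scaling is not given here, so that count is no result about the 36. The calls of lower levels in gastrocnemius thus hold relative to the bulk of the genes.

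The first 4 genes bring glucose into the fibre and phosphorylate it. In soleus 3 of the 4 fell and 0 rose, with a median of -0.53. The Hk1 call rests on 1 of its 6 probes. The Slc2a1 call was lost in 12 of 20 fits with 1 array left out. In gastrocnemius 0 of 4 passed, with a median of -0.26. Beside this and later role counts, 2.42% of all genes were higher and 3.53% lower in soleus. In gastrocnemius these shares were 1.17% and 2.00%. No role was tested as a set. Hk2, the insulin-responsive hexokinase of muscle, was at 5.23, 4.97, 5.18, 5.38 and 4.95 in HLS soleus and at 5.93, 6.02, 5.51, 5.61 and 5.76 in control soleus. All HLS arrays lay below all control arrays. The difference was -0.62 ± 0.11 (adjusted p = 0.0016), and -0.65 without HLS array 1. In gastrocnemius Hk2 was at 5.00, 4.87, 5.08, 5.11 and 5.05 after HLS and at 5.13, 5.10, 5.04, 5.30 and 5.40 in controls. These groups overlapped, and the difference of -0.17 ± 0.11 did not pass (adjusted p = 0.54).

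Slc2a1 encodes GLUT1, the transporter held responsible for basal glucose uptake. It was at 1.07, 1.20, 1.10, 1.17 and 1.16 in HLS soleus and at 1.99, 1.90, 1.67, 1.80 and 1.13 in control soleus. Control array 5 lay among the HLS arrays and the other 4 controls above them. The difference was -0.55 ± 0.16 (adjusted p = 0.041), and the call was lost without HLS array 1 (adjusted p = 0.077). The call was also lost in a fit of the 10 soleus arrays (adjusted p = 0.088). Array 5 is the only control on the slide it shares with 3 HLS arrays, and within that slide the difference was 0.000575. Leaving out 1 array ended the call in 12 of 20 cases, with adjusted p up to 0.11. These were each HLS soleus array, control soleus arrays 1 to 4, HLS gastrocnemius array 3 and control gastrocnemius arrays 2 and 4. In gastrocnemius it was at 1.22, 1.10, 1.05, 0.83 and 0.95 after HLS and at 1.38, 1.40, 1.16, 1.43 and 2.08 in controls. The HLS array at 1.22 overlapped the control array at 1.16, and the difference of -0.46 ± 0.16 did not pass (adjusted p = 0.13).

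Hk1, the hexokinase of most tissues, was at 1.22, 1.30, 1.34, 1.61 and 0.96 in HLS soleus and at 1.74, 1.74, 1.61, 2.30 and 1.60 in control soleus. The groups met at 1.61 and 1.60, and the difference was -0.52 ± 0.13 (adjusted p = 0.016), lost without HLS array 5 (adjusted p = 0.053). Of the 6 Hk1 probes the brightest alone passed. The other 5 differed by -0.11 to 0.36, 1 lower and 4 higher, and the mean of all probes differed by 0.05. In gastrocnemius Hk1 was at 1.01, 0.98, 1.09, 0.98 and 0.91 after HLS and at 1.27, 1.26, 1.41, 1.35 and 1.42 in controls. Each HLS array was below each control array there. The difference of -0.35 ± 0.13 did not pass over the 20 arrays (adjusted p = 0.16) and passed in a fit of the 10 gastrocnemius arrays (adjusted p = 0.023). In a fit of the 10 soleus arrays the soleus call of Hk1 was lost (adjusted p = 0.14). Slc2a4 encodes GLUT4, the transporter that insulin and contraction move to the membrane. It was at 6.33, 5.74, 5.96, 6.37 and 6.07 in HLS soleus and at 6.55, 6.62, 6.23, 6.25 and 6.48 in control soleus. The groups overlapped, and the difference of -0.33 ± 0.12 did not pass (adjusted p = 0.14). In gastrocnemius Slc2a4 was at 6.32, 5.97, 6.10, 6.28 and 6.41 after HLS and at 6.36, 6.27, 6.25, 6.52 and 6.39 in controls, a difference of -0.14 ± 0.12 (adjusted p = 0.69).

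The 7 genes of upper glycolysis cover the steps between glucose 6-phosphate and the triose phosphates. None passed in either muscle, where 0 had an unadjusted p below 0.05. Their differences spanned -0.13 to 0.19 in soleus, with a median of 0.12, and -0.18 to 0.34 in gastrocnemius, with a median of -0.05. Without HLS array 1 the soleus span was -0.11 to 0.09, with a median of -0.01. Pfkm, the muscle form of phosphofructokinase, differed by 0.13 ± 0.15 in soleus (-0.01 without HLS array 1) and 0.01 ± 0.15 in gastrocnemius. The 95% interval for Aldoa, the muscle aldolase, ran between -0.15 and 0.25 in soleus and between -0.30 and 0.10 in gastrocnemius.

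The 4 Pfkfb genes each encode an enzyme that makes and removes fructose 2,6-bisphosphate, and the product of Pfkfb3 acts mostly as the kinase. Pfkfb3 had the largest rise among the 36 genes in both muscles. It was at 5.68, 3.53, 3.61, 3.90 and 3.22 in HLS soleus and at 1.90, 0.81, 2.14, 2.42 and 2.23 in control soleus. The HLS arrays lay above all control arrays, with HLS array 1 the highest by far. The difference was 2.09 ± 0.43, or 4.25-fold (adjusted p = 0.0042), and 1.66 without array 1 (adjusted p = 0.0089). In gastrocnemius it was at 5.95, 5.21, 4.97, 4.68 and 3.59 after HLS and at 3.15, 3.64, 3.27, 3.34 and 2.52 in controls. HLS array 5 overlapped the controls and the other 4 were above them. The difference was 1.70 ± 0.43, or 3.24-fold (adjusted p = 0.032), and leaving out any 1 of HLS arrays 1 to 4 or control arrays 1, 3, 4 and 5 ended the call (adjusted p up to 0.092). Without HLS array 1 of gastrocnemius it was 1.43. The only gastrocnemius HLS array on a slide with controls exceeded those 3 controls by 2.91.

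Pfkfb3 had 2 dimmer probes as well. In soleus these differed by 0.58 and 0.47 and did not pass (adjusted p = 0.062 and 0.19). In gastrocnemius they differed by 0.76 and 0.83 and both passed (adjusted p = 0.024 and 0.020). The direction was shared by all 3 probes in both muscles. The size differed, at 0.47 to 2.09 in soleus. The other 3 Pfkfb genes did not pass. Pfkfb4 differed by 0.49 ± 0.19 in soleus and 0.05 ± 0.19 in gastrocnemius, Pfkfb1 by 0.30 ± 0.26 and 0.08 ± 0.26, with -0.02 in soleus without HLS array 1, and Pfkfb2 by -0.34 ± 0.11 and -0.38 ± 0.11 (adjusted p = 0.078 and 0.066).

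Lower glycolysis runs between glyceraldehyde 3-phosphate and pyruvate, and 6 of its 7 listed genes were measured. In each muscle 1 of 6 fell and 0 rose, with medians of 0.04 in soleus (-0.04 without HLS array 1) and -0.09 in gastrocnemius. The gene was Pgam1, the phosphoglycerate mutase of most tissues outside muscle fibres. It was at 1.58, 1.63, 1.58, 1.59 and 0.90 in HLS soleus and at 2.34, 2.17, 2.42, 2.41 and 2.36 in control soleus. No HLS array reached a control array. The difference was -0.89 ± 0.13 (adjusted p = 0.0002), -0.92 without HLS array 1, and -0.75 at the smallest with any 1 array left out. In gastrocnemius Pgam1 was at 1.67, 1.57, 1.68, 1.62 and 1.56 after HLS and at 2.34, 2.54, 2.40, 2.13 and 1.98 in controls. Again the groups were apart. The difference was -0.66 ± 0.13 (adjusted p = 0.0062) relative to the percentile and 0.12 with spike-in scaling, which is -0.67 relative to the median of all genes there.

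Pgam2, the muscle form of the same enzyme, differed by -0.09 ± 0.21 in soleus (-0.34 without HLS array 1, adjusted p = 0.21) and -0.14 ± 0.21 in gastrocnemius and did not pass (adjusted p = 0.88 and 0.85). Pkm, pyruvate kinase, was at 4.11, 2.97, 3.30, 3.58 and 2.85 in HLS soleus and at 3.24, 3.28, 3.09, 3.10 and 3.13 in control soleus. The groups overlapped, with a difference of 0.19 ± 0.19, and 0.01 without HLS array 1. In gastrocnemius Pkm was at 4.65, 4.60, 4.55, 4.57 and 4.97 after HLS and at 4.96, 4.69, 4.75, 5.06 and 4.21 in controls, a difference of -0.07 ± 0.19. Eno1, Eno3 and Pgk1 differed by -0.02 to 0.34 in soleus and by -0.10 to 0.16 in gastrocnemius. The 0.34 was that of Pgk1, at -0.0057 without HLS array 1. The lactate dehydrogenase subunits Ldha and Ldhb, which interconvert pyruvate and lactate, did not pass in either muscle. Ldhb differed by -0.33 ± 0.16 in soleus (adjusted p = 0.29), and Ldha by -0.06 ± 0.18. Without HLS array 1 these were -0.18 and -0.22 (adjusted p = 0.58 and 0.56).

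**Figure D3:**
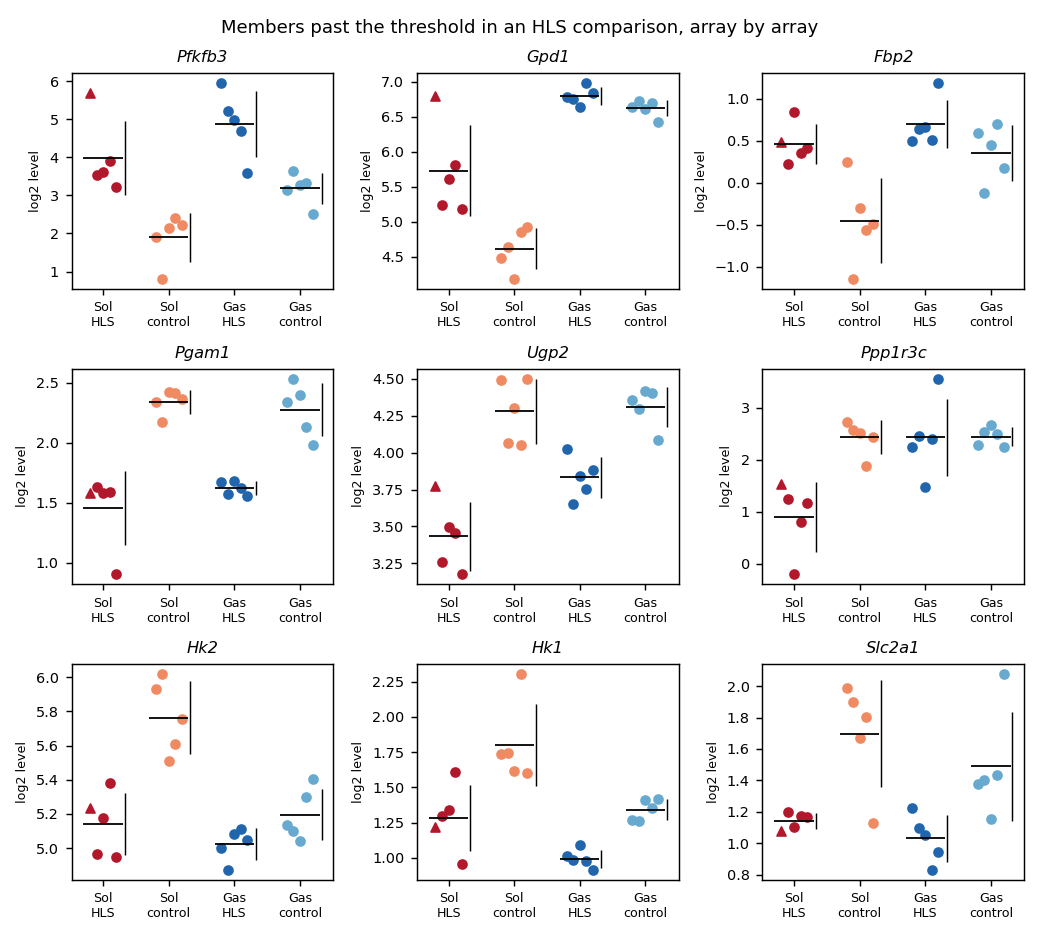
Log2 level over the array's 75th percentile of the 9 genes that passed in soleus, 1 point per array (Sol, soleus; Gas, gastrocnemius), with the group mean as a horizontal line and 1 SD on each side as a vertical line (n = 5). The triangle is soleus HLS array 1; the HLS and control arrays of soleus are fully apart for Pfkfb3, Gpd1, Pgam1, Ugp2, Ppp1r3c and Hk2, and Hk1 is shown by the 1 of its 6 probes that passed.

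Glycogen synthesis was covered by 5 genes, of which 2 fell in soleus and 1 in gastrocnemius, with medians of -0.40 (-0.28 without HLS array 1) and -0.17. Ppp1r3c encodes PTG, the scaffold that brings protein phosphatase 1 to glycogen, where it activates glycogen synthase. It had the largest fall among the 36 genes in soleus. Its level was 1.53, 1.24, -0.21, 0.80 and 1.17 in HLS soleus and 2.74, 2.58, 2.52, 1.88 and 2.45 in control soleus. Each HLS array was below each control array, with HLS array 3 the lowest. The difference was -1.53 ± 0.31 (adjusted p = 0.0037), or 2.89-fold lower, and -1.68 without HLS array 1. A second probe differed by -1.39 and also passed (adjusted p = 0.0063). In gastrocnemius Ppp1r3c was at 2.25, 2.46, 1.48, 2.40 and 3.57 after HLS and at 2.29, 2.54, 2.66, 2.50 and 2.25 in controls. The HLS arrays lay on both sides of the controls, and the difference was -0.02 ± 0.31 (adjusted p = 0.99).

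Ugp2 makes UDP-glucose, the donor from which glycogen is built. It was at 3.77, 3.26, 3.50, 3.45 and 3.17 in HLS soleus and at 4.49, 4.06, 4.30, 4.05 and 4.50 in control soleus. Each HLS array was below each control array, with a difference of -0.85 ± 0.12 (adjusted p = 0.00019), and -0.94 without HLS array 1. In gastrocnemius it was at 4.03, 3.65, 3.84, 3.76 and 3.89 after HLS and at 4.36, 4.30, 4.42, 4.40 and 4.09 in controls. The groups were apart there too, by -0.48 ± 0.12 (adjusted p = 0.035), with a value of 0.30 under spike-in scaling, which is -0.49 relative to the median of all genes. A second Ugp2 probe passed in soleus (-0.65, adjusted p = 0.0011) and did not in gastrocnemius (-0.28, adjusted p = 0.22). Leaving out any 1 of HLS arrays 2 to 5 or control arrays 1 to 4 ended the call there (adjusted p up to 0.093). So did the replicate number as a block (adjusted p = 0.081), which pairs each HLS mouse with a different, control mouse.

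Gys1, the muscle glycogen synthase, did not pass. It was at 1.48, 1.19, 0.82, 1.08 and 0.50 in HLS soleus and at 1.33, 0.42, 1.61, 0.39 and 1.99 in control soleus, with the HLS arrays inside the wide span of the controls. The difference was -0.13 ± 0.28, and -0.25 without HLS array 1. In gastrocnemius Gys1 was at 1.47, 1.35, 1.42, 1.63 and 1.65 after HLS and at 2.01, 1.57, 2.02, 1.93 and 0.82 in controls, a difference of -0.17 ± 0.28. Gyg, the glycogenin that primes the polymer, differed by -0.40 ± 0.15 in soleus and -0.26 ± 0.15 in gastrocnemius, and neither passed (adjusted p = 0.14 and 0.47). Gbe1, the branching enzyme, differed by 0.12 ± 0.17 and 0.10 ± 0.17, with 0.27 in soleus without HLS array 1.

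Glycogen breakdown was covered by phosphorylase (Pygm, Pygb) and subunits of phosphorylase kinase (Phka1, Phkb, Phkg1), which switches phosphorylase on. None of the 5 passed in either muscle, with medians of 0.40 in soleus and 0.23 in gastrocnemius. Without HLS array 1 the soleus median was 0.08, and Phka1 differed by -0.54 (adjusted p = 0.14), against 0.02 with it. Pygm, the muscle phosphorylase, was at 5.21, 3.14, 3.65, 3.75 and 3.09 in HLS soleus and at 3.79, 2.74, 3.25, 2.81 and 3.70 in control soleus. HLS array 1 was near the gastrocnemius level and the other 4 within the range of the controls. The difference was 0.51 ± 0.32 with it and 0.15 without it (adjusted p = 0.44 and 0.83). In gastrocnemius Pygm was at 5.55, 5.16, 5.02, 5.21 and 5.46 after HLS and at 5.54, 5.22, 5.12, 5.60 and 4.46 in controls, with a difference of 0.09 ± 0.32.

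The last 3 genes belong to the glycerol phosphate shuttle and to the reversal of glycolysis, and 2 of them rose in soleus, with a median of 0.91. In gastrocnemius 0 of 3 passed, with a median of 0.18. Gpd1, the cytosolic glycerol 3-phosphate dehydrogenase, was at 6.80, 5.24, 5.62, 5.81 and 5.18 in HLS soleus and at 4.48, 4.64, 4.18, 4.85 and 4.92 in control soleus. The 2 groups did not overlap, with all HLS arrays higher. The difference was 1.11 ± 0.22, or 2.17-fold (adjusted p = 0.0028), and 0.85 without HLS array 1 (adjusted p = 0.0014). A second, dimmer probe differed by 1.13 and did not pass (adjusted p = 0.099). In gastrocnemius Gpd1 was at 6.78, 6.75, 6.63, 6.98 and 6.83 after HLS and at 6.64, 6.72, 6.61, 6.69 and 6.43 in controls, with overlap and a difference of 0.18 ± 0.22 (adjusted p = 0.80).

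Fbp2 encodes the muscle fructose 1,6-bisphosphatase, which runs opposite to phosphofructokinase. It was at 0.49, 0.22, 0.85, 0.35 and 0.41 in HLS soleus and at 0.25, -1.15, -0.30, -0.57 and -0.49 in control soleus. Control array 1 lay just above the lowest HLS array and the other 4 controls were below all HLS arrays. The difference was 0.91 ± 0.21 (adjusted p = 0.0099), with the same value without HLS array 1 (adjusted p = 0.021), and 0.65 with spike-in scaling, where it did not pass (adjusted p = 0.067). In gastrocnemius Fbp2 was at 0.50, 0.64, 0.67, 0.51 and 1.19 after HLS and at 0.59, -0.13, 0.45, 0.70 and 0.18 in controls, a difference of 0.34 ± 0.21 (adjusted p = 0.50). Gpd2, the mitochondrial partner of Gpd1, differed by 0.27 ± 0.31 in soleus, -0.14 without HLS array 1, and 0.12 ± 0.31 in gastrocnemius.

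Whether HLS acted differently in soleus and in gastrocnemius was tested as the difference of both effects. The standard errors and p-values of that test leave out that both muscles came from the same mice. Of the 36 genes 0 passed, against 0.00791% of all genes (2 genes), while 4 of the 36 and 1457 of all genes had an unadjusted p below 0.05. The 4 were Ppp1r3c (-1.51 ± 0.44, adjusted p = 0.49), Gpd1 (0.94 ± 0.31, adjusted p = 0.62), Hk2 (-0.45 ± 0.16, adjusted p = 0.70) and Ugp2 (-0.37 ± 0.17, adjusted p = 0.86). With spike-in scaling the Gpd1 value was -0.10, which is 0.91 relative to the median of all genes. A different response of the muscles was therefore not shown for any of the 36 genes, including the 6 that passed in soleus alone. With spike-in scaling 30 of 36 passed, all lower in soleus, with the median of all genes at -1.01. The share of all genes that passed under that scaling is not given, so this count is no result about the 36.

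Soleus and gastrocnemius were next compared within each condition, where both muscles came from the same mice. The standard errors and p-values printed for it leave out this pairing. After HLS, 22 of the 36 genes differed, 3 higher and 19 lower in soleus, against 30.9% of all genes (13.3% higher, 17.6% lower). Without soleus HLS array 1 it was 23, 3 higher and 20 lower, against 3524 and 4541 of all 25291 genes. There 1 of the 36 differences turned in sign. In controls 24 differed, 5 higher and 19 lower, against 33.5% of all genes (12.7% higher, 20.9% lower). The median of the 36 genes was -0.45 after HLS and -0.52 in controls, against -0.03 and -0.05 over all genes. These comparisons use the same arrays as those of HLS with control, and so are no independent evidence of them. The 6 adipocyte markers were also higher in soleus, by a median of 1.41 after HLS and 1.77 in controls, and 2 of 4 nerve markers were lower in controls. After HLS 1 of 4 nerve markers was lower, and 4 of 4 without soleus HLS array 1. The part of these cell types was not tested. Slides held 1 muscle each, so slide and muscle cannot be told apart. With slide as a random block the same numbers of the 36 passed, but that fit cannot separate slide from muscle. Its correlation within slides was -0.03, so it was close to the fit without a block. With scan day as a block 15 passed after HLS and 4 in controls (Ldhb, Gpd1, Gpd2 and Pkm), where the muscles were scanned on separate days. With spike-in scaling 19 passed after HLS, 3 higher and 16 lower. In controls 28 passed, 21 higher and 7 lower, with the median of all genes at 1.00. For the counts with scan day or spike-in scaling the share of all genes is not given, so they are no result about the 36.

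**Figure D4:**
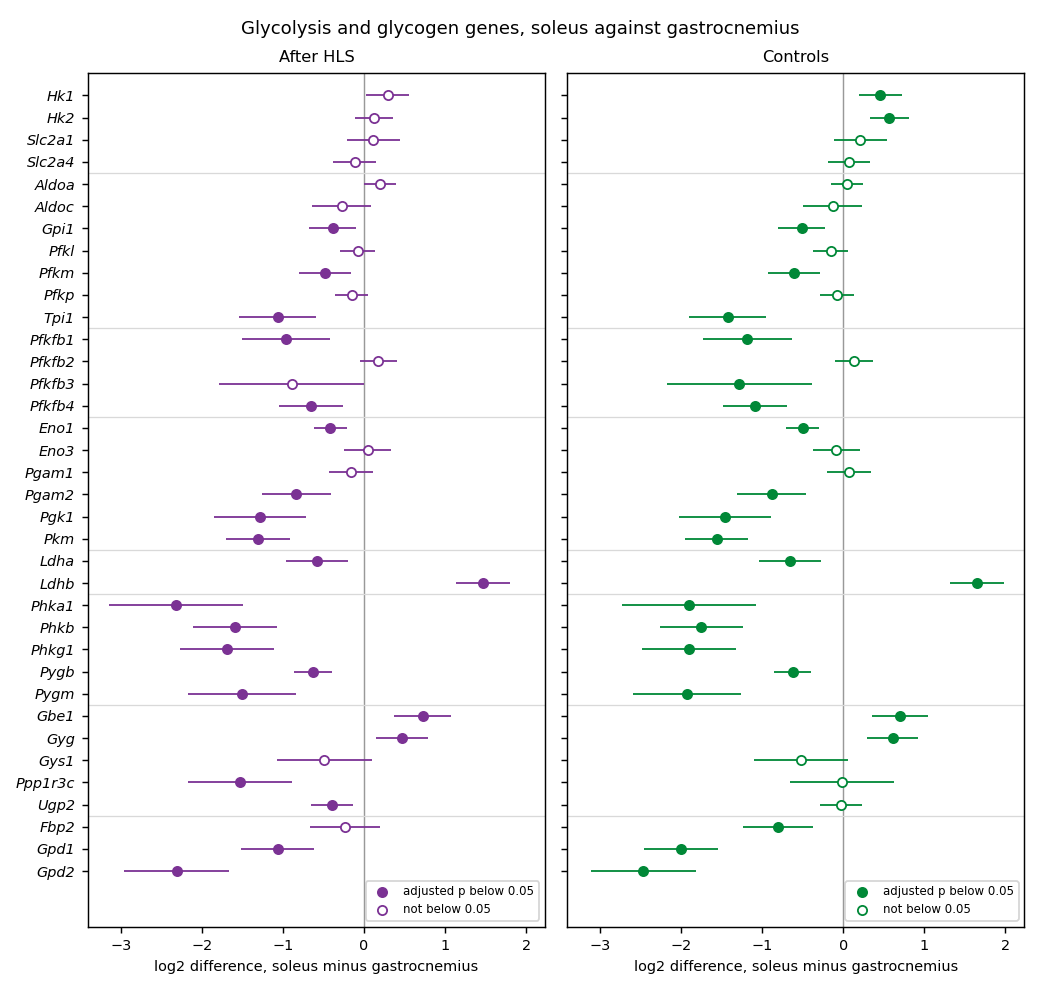
Log2 difference, soleus minus gastrocnemius, of the 36 genes after HLS (left) and in controls (right), with 95% confidence intervals from limma, grouped by role. Filled points have an adjusted p below 0.05 (22 after HLS, 24 in controls); the 5 genes of glycogen breakdown lie to the left of 0 in both panels and Ldhb to the right, relative to the array percentile, and Hk1 is shown by 1 of its 6 probes.

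All 5 genes of glycogen breakdown were lower in soleus in both conditions, with medians of -1.59 after HLS and -1.90 in controls. Beside this and later role counts, 13.3% of all genes were higher and 17.6% lower in soleus after HLS. In controls these shares were 12.7% and 20.9%. For Pygm, whose levels are given above, the difference was -1.51 ± 0.32 after HLS and -1.93 ± 0.32 in controls (adjusted p = 0.0015 and 0.00017), with soleus lower in 5 of 5 mice of each condition. Phkg1, the catalytic subunit of muscle phosphorylase kinase, was at 2.13, 0.04, 0.17, 0.61 and -0.04 in soleus and 2.42, 2.24, 2.11, 2.24 and 2.36 in gastrocnemius after HLS. In controls it was at 0.27, 0.10, -0.27, -0.10 and 0.28 in soleus and 2.06, 2.02, 1.77, 2.27 and 1.70 in gastrocnemius. Only soleus HLS array 1 reached the gastrocnemius values. The differences were -1.69 ± 0.28 after HLS and -1.91 ± 0.28 in controls, and -2.08 after HLS without array 1.

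Phka1, a regulatory subunit of the same kinase, was at 0.12, -2.75, -2.70, -2.32 and -2.98 in soleus and 0.47, -0.11, 0.09, 0.03 and 0.52 in gastrocnemius after HLS. In controls it was at -1.75, -2.52, -2.18, -2.40 and -1.90 in soleus and -0.01, -0.55, -0.15, 0.16 and -0.68 in gastrocnemius. Soleus HLS array 1 lay among the gastrocnemius arrays and all other soleus arrays below them. The differences were -2.33 ± 0.40 after HLS and -1.90 ± 0.40 in controls, and -2.89 after HLS without array 1. Phkb, the other regulatory subunit, was at 2.19, 0.43, 0.69, 0.80 and 0.44 in soleus and 2.76, 2.25, 2.40, 2.38 and 2.72 in gastrocnemius after HLS. In controls Phkb was at 0.59, 0.22, 0.42, 0.54 and 0.80 in soleus and 2.18, 2.56, 2.40, 2.37 and 1.83 in gastrocnemius. Its differences were -1.59 ± 0.25 and -1.76 ± 0.25, with no overlap in either condition.

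The shuttle enzymes also stood lower in soleus. Gpd2 was at 1.44, -1.02, -0.39, -0.14 and -0.95 in soleus and 2.18, 1.83, 2.01, 2.12 and 2.37 in gastrocnemius after HLS. In controls Gpd2 was at -0.02, -0.80, -0.69, -0.58 and -0.33 in soleus and 2.06, 2.04, 1.77, 2.21 and 1.85 in gastrocnemius. The muscles did not overlap in either condition, with differences of -2.32 ± 0.31 and -2.47 ± 0.31. A second Gpd2 probe gave -0.70 and -0.73, and both passed. For Gpd1 the difference was -1.07 ± 0.22 after HLS and -2.00 ± 0.22 in controls (adjusted p = 0.0011 and 3.5e-06), and soleus was lower in 4 of 5 HLS mice and 5 of 5 control mice. The interaction test given above did not pass for it.

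In upper and lower glycolysis, 3 of 7 and 4 of 6 genes were lower in soleus in each condition and 0 were higher. Their medians were -0.27 and -0.63 after HLS and -0.16 and -0.69 in controls. Of all genes, 17.6% were lower in soleus after HLS and 20.9% in controls. Pkm differed by -1.31 ± 0.19 after HLS and -1.57 ± 0.19 in controls, Pgk1 (phosphoglycerate kinase) by -1.29 ± 0.27 and -1.46 ± 0.27, and Tpi1 (triose phosphate isomerase) by -1.07 ± 0.23 and -1.43 ± 0.23. Aldoa and Eno3, the muscle enolase, did not pass in either condition. Of the Pfkfb genes, 2 were lower in soleus after HLS (Pfkfb1 and Pfkfb4) and 3 in controls (also Pfkfb3, at -1.28 ± 0.43, adjusted p = 0.026). Pfkfb3 differed by -0.89 ± 0.43 after HLS (adjusted p = 0.12), and without soleus HLS array 1 it passed, at -1.32 (adjusted p = 0.010).

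Ldhb encodes the heart-type subunit of lactate dehydrogenase, which is known from oxidative muscle, and Ldha the subunit of fast muscle. Ldhb was at 6.51, 7.39, 7.16, 7.36 and 7.14 in soleus and 5.52, 5.56, 5.86, 5.63 and 5.64 in gastrocnemius after HLS. In controls Ldhb was at 7.81, 7.47, 7.33, 7.23 and 7.37 in soleus and 6.17, 5.47, 5.98, 5.71 and 5.66 in gastrocnemius. Each soleus array was above each gastrocnemius array in both conditions, with soleus HLS array 1 the nearest. The differences were 1.47 ± 0.16 after HLS and 1.64 ± 0.16 in controls (adjusted p = 4.5e-06 and 1.4e-06). Ldha differed the other way, by -0.58 ± 0.18 and -0.66 ± 0.18 (adjusted p = 0.020 and 0.0092).

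The genes of glycogen synthesis did not follow those of breakdown: 2 of 5 were higher and 2 lower in soleus after HLS, and 2 were higher and 0 lower in controls. Gbe1 was at 4.35, 5.18, 4.95, 5.32 and 4.89 in soleus and 4.09, 3.78, 4.37, 4.42 and 4.43 in gastrocnemius after HLS. In controls Gbe1 was at 4.76, 4.92, 4.55, 4.95 and 4.89 in soleus and 4.33, 3.80, 3.99, 4.10 and 4.35 in gastrocnemius. The muscles were apart in controls and overlapped through soleus HLS array 1, with differences of 0.72 ± 0.17 after HLS and 0.70 ± 0.17 in controls. Gyg was at 6.49, 7.0, 7.23, 7.08 and 7.17 in soleus and 6.64, 6.15, 6.55, 6.57 and 6.74 in gastrocnemius after HLS. In controls Gyg was at 7.69, 7.59, 7.20, 7.38 and 7.13 in soleus and 6.88, 6.63, 6.52, 6.90 and 7.01 in gastrocnemius. Soleus was higher by 0.47 ± 0.15 after HLS (adjusted p = 0.026) and by 0.61 ± 0.15 in controls (adjusted p = 0.0046). The call after HLS was lost without soleus HLS array 3, 4 or 5 or gastrocnemius HLS array 2 (adjusted p up to 0.081).

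Ppp1r3c and Ugp2 were lower in soleus after HLS, by -1.53 ± 0.31 and -0.40 ± 0.12 (adjusted p = 0.0011 and 0.019). In controls they differed by -0.01 ± 0.31 and -0.03 ± 0.12 (adjusted p = 0.98 and 0.87). Ppp1r3c was lower in soleus than in gastrocnemius in 5 of 5 HLS mice, by 0.72 to 2.40, and higher in soleus in 3 of 5 control mice. For Ugp2 soleus was lower in 5 of 5 HLS mice and higher in 2 of 5 control mice, and a second probe did not differ past the threshold after HLS (-0.03, adjusted p = 0.89). Of the 4 genes of glucose entry, 0 passed after HLS, with a median of 0.12, and 2 were higher in soleus in controls, with a median of 0.33. These were Hk2 (0.57 ± 0.11, adjusted p = 0.00084) and Hk1 (0.46 ± 0.13, adjusted p = 0.0088). For Hk1 the brightest probe alone was higher in soleus past the threshold, 3 of the other 5 were lower, and the mean of all probes differed by -0.29 (adjusted p = 0.014). The interaction test given above did not pass for Ppp1r3c, Ugp2, Hk2 or Hk1, so a change of the muscle difference with HLS was not shown.

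Around these genes, 53 further genes of glucose and glycogen metabolism were listed and 50 measured. In HLS soleus 1 rose and 2 fell, with a median of -0.02, and in HLS gastrocnemius 0 rose and 3 fell, with a median of 0.04. Each is 6% of the 50, against 5.95% of all genes in soleus and 3.17% in gastrocnemius. The lowest adjusted p in both muscles belonged to Mlxipl and Slc16a1. Mlxipl encodes the glucose-responsive transcription factor ChREBP. It was at 2.62, 1.76, 1.98, 1.82 and 1.32 in HLS soleus and at 3.03, 2.70, 3.05, 2.65 and 2.96 in control soleus. In gastrocnemius Mlxipl was at 2.25, 2.04, 1.97, 1.90 and 2.10 after HLS and at 3.08, 2.95, 2.86, 3.01 and 2.45 in controls. Each HLS array was below each control array in both muscles, with differences of -0.98 ± 0.18 and -0.82 ± 0.18 (adjusted p = 0.0013 and 0.010). With spike-in scaling the difference in gastrocnemius was -0.04, which is -0.83 relative to the median of all genes.

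Slc16a1 encodes the monocarboxylate transporter MCT1, which carries lactate across the membrane. It was at 3.02, 4.02, 4.10, 4.39 and 3.63 in HLS soleus and at 5.08, 4.86, 4.46, 4.72 and 4.64 in control soleus. In gastrocnemius Slc16a1 was at 2.99, 2.82, 3.00, 3.01 and 2.64 after HLS and at 3.80, 4.09, 4.14, 3.81 and 4.06 in controls. The groups were apart in both muscles, with differences of -0.92 ± 0.19 and -1.09 ± 0.19 (adjusted p = 0.0038 and 0.0022). Soleus HLS array 1 was the lowest of its group, near the HLS gastrocnemius arrays. The soleus difference without it is not given here. With spike-in scaling the Slc16a1 difference in gastrocnemius was -0.31, which is -1.10 relative to the median of all genes. Between muscles, 6 of the 50 were higher and 17 lower in soleus after HLS, and 7 higher and 20 lower in controls. These are 46% and 54% of the 50, against 30.9% and 33.5% of all genes.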

How the data were processed

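Total RNA of 1 muscle per array was hybridised to 20 one-colour arrays, and 600 ng with 3 µl of spike-in RNA was labelled, per the labels' protocols. The deposited intensity values are spot signals on a linear scale, which the authors' scanner software (Agilent Feature Extraction 9.1.3.1 in the file headers) had background-subtracted and detrended, with no scaling between arrays. The deposited series table matched them within 0.497% and served as an alternative.

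Uneven and outlier spots were dropped, signals were divided by the 75th percentile of the non-control spots of that array (385.5 to 736.1), and log2 values of 1 probe were averaged. Each array held 45018 spots, 43379 of them non-control, for 41174 probes, and 80.7% to 93.1% were well above background. Probes had to be well above background on 4 or more of the 5 arrays in some group, and the brightest stood for its gene. The number of arrays limits the precision. A means model of the 4 groups was fitted with limma 3.58.1 in R 4.3.3, with two-sided tests and Benjamini-Hochberg adjustment over 25291 genes. On simulated data 86% of 200 genes changed by 1 (log2) in soleus were recovered, and 12 unchanged genes were called. The simulated noise was independent and normal, with no effect of slide, scan day or an odd array. It therefore does not give the power in the real data.

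The genes, roles, lists and marker lists were chosen with earlier results of these data known. Named array by array were genes past the threshold in an HLS comparison, up to 4 at each end of each muscle comparison, and Hk2, Slc2a4, Pygm, Gys1 and Pkm. Other genes were given by value or range, and further pathway genes by counts with the 2 lowest adjusted p in each HLS comparison named. Per the labels, both muscles of 1 number within a condition are of 1 mouse, while control and HLS mice differ. Deviations of both muscles of a mouse correlated at -0.344 to 0.170. The spike-in scaling, slide as a random block, values within slides and days, and the promoter motifs were chosen after seeing the data. Figures were drawn with matplotlib.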

Additional observations from a re-analysis of the deposited data

Results flagged for a closer look

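In 12 of 144 gene and group combinations, 1 array stood far from the other 4 (Dixon's test), where chance flags about 1 in 20 groups. Of these, 5 were on soleus HLS array 1: Pfkfb3 at 5.68 (others 3.22 to 3.90), Pgk1 at 6.81 (4.82 to 5.31), Ldhb at 6.51 (7.14 to 7.39), Phka1 at 0.12 (-2.98 to -2.32) and Phkb at 2.19 (0.43 to 0.80). On that array all 5 lay on the side of gastrocnemius. Pgam1 was at 0.90 on soleus HLS array 5, with the others at 1.58 to 1.63. Among control soleus arrays, Hk1 was at 2.30 on array 4 (1.60 to 1.74) and Pfkfb1 at 2.63 on array 5 (1.61 to 1.87). Among HLS gastrocnemius arrays, Pkm was at 4.97 and Fbp2 at 1.19 on array 5, with the others at 4.55 to 4.65 and 0.50 to 0.67. Among control gastrocnemius arrays, Pfkfb1 was at 2.76 on array 5 (3.13 to 3.23) and Pfkfb4 at 3.29 on array 4 (2.70 to 2.80).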

How the results depend on the processing

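With normexp background correction, the series table, no filter on dim probes, only probes above background on all arrays, and slide as a random block, the counts of genes that passed were those of the report in all 5 comparisons. The random block had a correlation of -0.03 and so was close to no block. Quantile normalization gave 8 in soleus, 4 in gastrocnemius, 0 in the interaction, 21 after HLS and 25 in controls, without Slc2a1 in soleus (adjusted p = 0.11) and Gyg after HLS (0.071). The mean of all probes gave 8, 2, 0, 21 and 24, without Hk1 in soleus and Ugp2 in gastrocnemius (adjusted p = 0.066). With slide as a fixed block 0 of 36 genes passed in soleus and 0 in gastrocnemius, and the muscle comparisons could not be fitted. With scan day as a block 0 passed in gastrocnemius and 4 in the muscle comparison of controls. Counts with a block or with spike-in scaling are given without the share of all genes. In the 10 arrays of gastrocnemius alone 5 passed. In the 10 arrays of soleus alone the calls of Hk1 and Slc2a1 were lost (adjusted p = 0.14 and 0.088). With each array left out in turn, 7 to 9 passed in soleus, 1 to 4 in gastrocnemius (1 without HLS array 2, 3 or 4 or control array 1, 3 or 4), 0 in the interaction, 18 to 23 between muscles after HLS and 23 to 25 in controls. The replicate block, by number within a muscle or by mouse, left 8 in soleus, 2 in gastrocnemius, 0 in the interaction, 23 after HLS and 24 in controls, and ended the calls of Slc2a1 in soleus (adjusted p = 0.095) and Ugp2 in gastrocnemius (0.081). Arrays of 1 number across conditions are of different mice, and their deviations correlated at -0.305 to 0.167.

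Spike-in scaling, chosen after seeing the data, gave 33 calls in gastrocnemius and 30 in the interaction. Under it the HLS differences in gastrocnemius turned positive for Pgam1 (0.12), Ugp2 (0.30), Slc2a1 (0.32), Hk1 (0.43), Hk2 (0.60), Gys1 (0.61), Slc2a4 (0.63), Pkm (0.71) and Ppp1r3c (0.76), and the interactions of Gpd1 (-0.10), Fbp2 (-0.47), Pygm (-0.62), Pfkfb3 (-0.65), Pkm (-0.78) and Gys1 (-1.01) turned negative, where the median of all genes was 0.79 and -1.01. With the mean of all probes, Hk1 in soleus was at 0.0472. Slc2a1 in soleus was at 0.000575 with slide as a block and within slide 5, and at 0.026 there without HLS array 1. The cause was not tested.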
